A study of Mus musculus with 6 samples.

Results

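The genes described here are Cyp4a10, Cyp4a12a, Cyp4a12b, Cyp4a14, Cyp4a31, Cyp4f13, Cyp4f14, Cyp4f15 and Cyp4v3, the Cyp4a and Cyp4f fatty acid hydroxylases of mouse liver with their relative Cyp4v3. Members were all probe sets of the array whose annotation gives exactly 1 gene symbol, that of a listed gene. This gave 9 probe sets of the 45101 on the array, for 7 of the 9 genes, out of 18193 genes with such a probe set. Cyp4a10 and Cyp4a12b had no probe set of their own. All 9 probe sets were among the 27022 kept after dim probe sets were left out.

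Total RNA was measured on 6 arrays, 1 for each liver, from male mice aged 3 weeks. The 3 mutant mice had loxP sites in both copies of Srf (Srf loxP/loxP) and carried the AlfpCre transgene. The 3 control mice had them in 1 copy, the other copy being wild type (Srf loxP/+), and carried AlfpCre too. Both groups thus carry Cre, which can also delete the loxP-flanked copy of the controls. The comparison is therefore with livers that are heterozygous for the loxP-flanked copy, not with wild-type livers. AlfpCre is a Cre recombinase transgene under albumin and alpha-fetoprotein regulatory sequences, which act in the hepatocyte lineage and not in the stellate, endothelial and immune cells that whole liver also holds. The submitters describe the mutant tissue as lacking Srf. SRF is a transcription factor of cytoskeletal and immediate early genes, and the question is how the liver transcriptome differs without it.

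Enzymes of the CYP4 family sit in the endoplasmic reticulum and place a hydroxyl group on the terminal (omega) carbon of fatty acids, taking electrons from P450 reductase. The hydroxylated acids are oxidised further to dicarboxylic acids, which peroxisomes shorten, a route used most when mitochondrial oxidation is overloaded, as in fasting. The same reaction turns arachidonic acid into 20-HETE and inactivates the inflammatory lipid leukotriene B4. In mouse liver Cyp4a10 and Cyp4a14 are classic targets of the nuclear receptor PPARalpha, while Cyp4a12a depends on androgen and on the male pattern of growth hormone release and is far more abundant in adult males than in females.

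The Cyp4a genes lie on chromosome 4, Cyp4f13, Cyp4f14 and Cyp4f15 on chromosome 17, and Cyp4v3 on chromosome 8 (RefSeq, GRCm38.p6). RefSeq's promoter table held entries for 4 of the 9 genes, Cyp4f13, Cyp4f14, Cyp4f15 and Cyp4v3. The 250 bases before the annotated start of each are shown because 3 of these genes share a chromosome and can be compared side by side. Capitals mark the letters CCAAT, or ATTGG where the match is on the other strand. Where the table lists several starts, the first was used.
Cyp4f14 (GRCm38.p6, chr17:32917357-32917606, minus strand): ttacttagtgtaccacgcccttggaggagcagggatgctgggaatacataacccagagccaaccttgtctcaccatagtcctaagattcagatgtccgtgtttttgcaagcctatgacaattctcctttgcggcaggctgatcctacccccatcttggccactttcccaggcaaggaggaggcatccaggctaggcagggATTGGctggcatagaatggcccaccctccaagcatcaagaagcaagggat
Cyp4f15 (GRCm38.p6, chr17:32685409-32685658, plus strand): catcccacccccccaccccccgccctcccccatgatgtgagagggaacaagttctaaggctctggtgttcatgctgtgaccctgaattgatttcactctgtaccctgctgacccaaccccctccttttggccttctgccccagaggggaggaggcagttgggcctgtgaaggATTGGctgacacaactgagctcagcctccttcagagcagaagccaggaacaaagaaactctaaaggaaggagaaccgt
Cyp4f13 (GRCm38.p6, chr17:32947362-32947611, minus strand): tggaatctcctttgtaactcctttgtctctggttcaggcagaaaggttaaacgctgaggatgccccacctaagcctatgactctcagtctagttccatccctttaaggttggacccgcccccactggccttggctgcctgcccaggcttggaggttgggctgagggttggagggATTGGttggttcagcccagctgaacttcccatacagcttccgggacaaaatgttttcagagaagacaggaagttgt
Cyp4v3 (GRCm38.p6, chr8:45333164-45333413, minus strand): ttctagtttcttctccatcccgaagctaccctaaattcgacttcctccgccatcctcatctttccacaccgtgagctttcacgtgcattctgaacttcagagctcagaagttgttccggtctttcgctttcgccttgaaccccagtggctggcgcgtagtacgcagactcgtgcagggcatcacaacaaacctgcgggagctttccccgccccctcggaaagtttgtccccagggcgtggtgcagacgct

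Each of the Cyp4f promoters held CCAAT once, on the opposite strand in each case, beginning 50 bases before the start in Cyp4f14, 78 in Cyp4f15 and 76 in Cyp4f13. Cyp4v3 had no match. CCAAT on either strand was present in 33.8% of the 32851 promoters of the table over the same length. The CArG box, the element SRF binds, was found in none of the 4 windows and in 1.47% of all promoters. The letters TTCNNNGAA, which STAT5 dimers recognise, occurred once, in Cyp4f13, 22 bases before the start, against 7.02% of all promoters. TATAAA was in none of the 4 and in 12.4% of all. Both strands were searched, and matches of different motifs did not overlap. These matches describe letters in short windows and say nothing of binding.

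The unit throughout is the log2 signal, the deposited linear intensity after each array was scaled to the same trimmed mean, with signals under 1 set to 1. Background, the 95th percentile of 83 probe sets for olfactory, vomeronasal and taste receptors, was 3.04 in mutants and 2.87 in controls. Values of different probe sets cannot be set against each other as amounts, since each has its own affinity. The arrays labelled mutant did not stand apart from controls in a uniform way. On the brighter probe set of Srf (1418256_at), whose position relative to the deleted segment is unknown here, so that it checks nothing, the mutants had 4.17, 5.24 and 2.54, against 5.11 to 5.31 in controls, so mutant 2 lay within the control range. On the dimmer one (1418255_s_at) the mutants had 3.29, 0 and 1.99, against 3.00, 3.69 and 3.37 in controls, so there mutant 1 lay within the control range and mutant 2 was lowest. An RNA degradation index, the log2 ratio of 3' to 5' signal averaged over the quality probe sets of Pcx, Gapdh and Actb, was 2.18, 1.18 and 1.57 in mutants 1 to 3, against 0.91, 0.78 and 1.22 in controls 1 to 3. All 6 measured hepatocyte markers were above background in both groups, with a summed level of 15.23 to 15.42 in mutants and 14.86 to 15.07 in controls, every mutant above every control on 5 of the 6, where 14.1% of all genes were. In whole liver RNA, fewer cells of a type and less RNA per cell cannot be told apart.

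None of the 9 Cyp4 probe sets passed the test across all probe sets (limma, Benjamini-Hochberg adjustment, threshold 0.05), where 0.074% of all probe sets did, 0.0148% higher and 0.0592% lower in mutants. At an unadjusted p under 0.05 there were 6 of 9, 4 of them lower and 2 higher in mutants, against 13.8% of all probe sets, made up of 6.18% lower and 7.6% higher. The mutant and control arrays did not overlap on 5 of the 9, against 23.2% of all: Cyp4a12a, Cyp4f14 and both probe sets of Cyp4v3 were lower in each mutant, where 9.36% of all probe sets were, and 1 probe set of Cyp4a31 was higher in each mutant, where 13.8% were. The median log2 fold change of the 9, mutant over control, was -0.17, beside 0.08 over all probe sets, and the median of its size without sign was 1.28 beside 0.48.

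**Figure D1:**
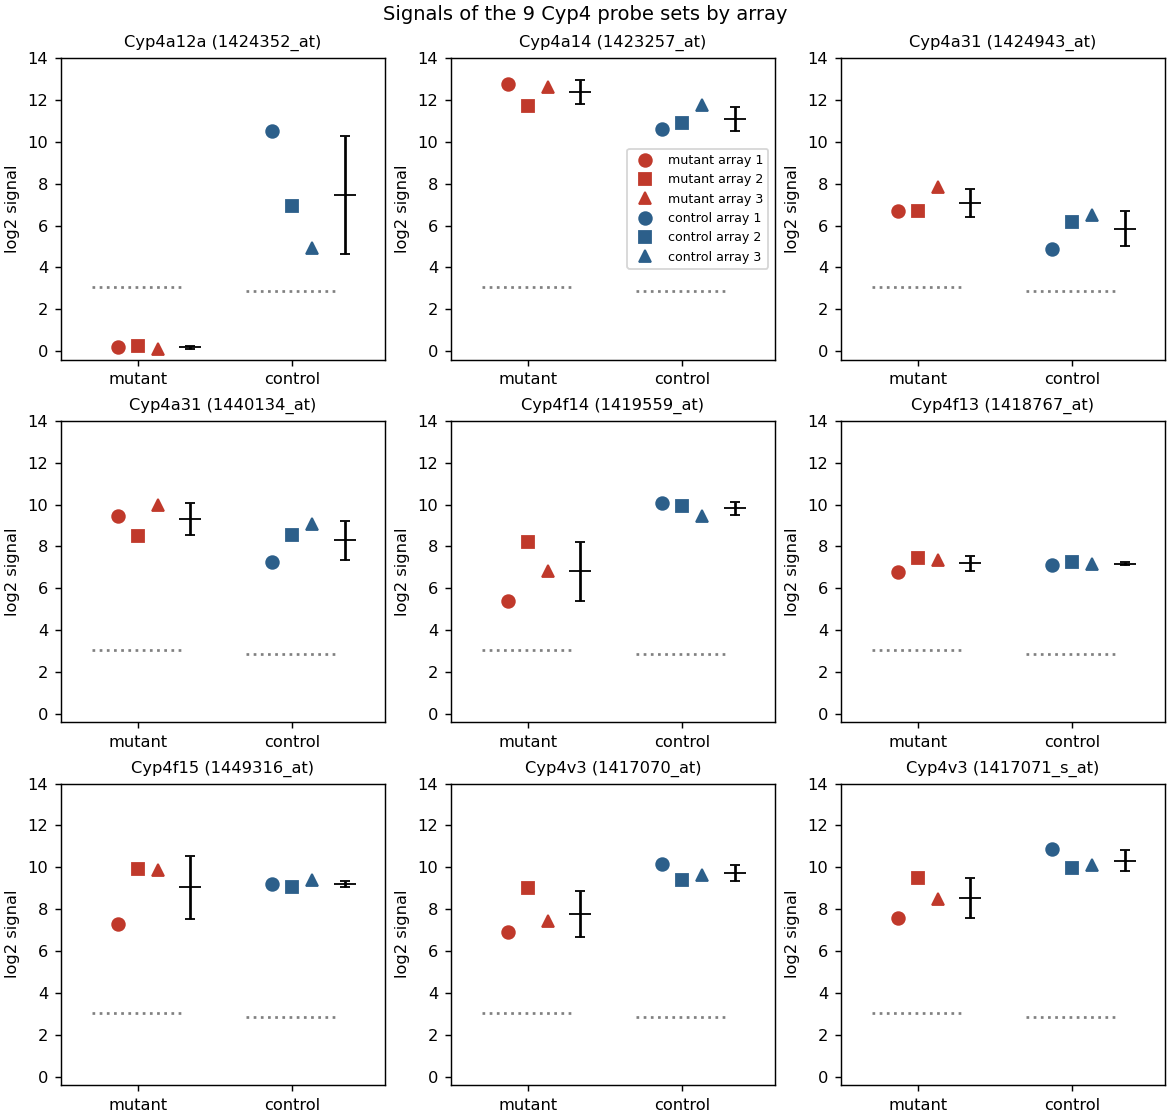
Log2 signal (vertical axis) of the 9 Cyp4 probe sets on the 3 mutant and 3 control arrays, 1 point for each array, with the mean and SD of each group (n = 3) beside the points and the background estimate as dotted lines. Cyp4a12a lies between 0.10 and 0.26 in mutants and between 4.92 and 10.52 in controls, while Cyp4a14 is high in both groups and Cyp4f13 has nearly the same mean in both.

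The male-typical Cyp4a12a, which forms 20-HETE from arachidonic acid, had the largest difference of the family (1424352_at). Its log2 signal was 0.18, 0.26 and 0.10 in mutants 1 to 3, against 10.52, 6.94 and 4.92 in controls 1 to 3. Every mutant array was far below background and every control above it, but the controls themselves spanned more than the gap between the groups, which was 4.66. The mean was 0.18 ± 0.08 in mutants and 7.46 ± 2.84 in controls (SD, n = 3 each), a fitted log2 fold change of -7.28 (SE 1.20, adjusted p = 0.0933, limma). Against the mutant background estimate the control mean gives at least 21.3-fold lower in mutants, and at least 7.38-fold lower without control 1. On the scaled linear scale the signals were 1.13, 1.19 and 1.07 in mutants, against 1473, 122.7 and 30.2 in controls, so control 1 carried most of the control signal. Without control 1 its log2 fold change was -5.75 (adjusted p = 0.284, limma), and over the 15 alternative settings the adjusted p lay between 0.0516 and 0.725. With the degradation index in the model it was -6.47 (adjusted p = 0.725, limma). Mutant 2, whose index of 1.18 was below the 1.22 of control 3, had 0.26, against 4.92 in control 3. That sets 1 array against 1 array, and the part of RNA quality in the difference was not tested by it. Cyp4a12b, a near-identical neighbour, has no probe set of its own, so its transcript may be part of this signal.

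Cyp4a14, the female-predominant and PPARalpha-inducible member, was bright in every liver (1423257_at). Mutants 1 to 3 had 12.78, 11.72 and 12.60, against 10.62, 10.88 and 11.75 in controls 1 to 3. The groups touched, since mutant 2 lay just below control 3. The mean was 12.36 ± 0.57 in mutants and 11.08 ± 0.59 in controls (SD, n = 3 each), a log2 fold change of 1.28, or 2.43-fold (SE 0.38, 95% interval 0.40 to 2.16, adjusted p = 0.296, limma). Among controls the array with the highest Cyp4a14, control 3, had the lowest Cyp4a12a, and control 1 had the reverse. This order rests on 3 arrays, and a link between the 2 genes among controls was not tested. With the index in the model the difference in Cyp4a14 was 0.46 (adjusted p = 0.929, limma; 0.0666 to 0.929 over the 15 alternatives).

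The responses of Cyp4a14 and Cyp4a12a were set against each other on the same arrays. The log2 signal of Cyp4a14 minus that of Cyp4a12a was 12.60, 11.46 and 12.50 in mutants 1 to 3, against 0.10, 3.94 and 6.83 in controls 1 to 3. Each mutant exceeded each control, and the difference between the group means was 8.56. The two-sided exact permutation p was 0.1, the smallest that 3 against 3 arrays can give. The size of this shift has no unit of amount, since the probe sets differ in affinity and Cyp4a12a was below background in mutants. Pairs with Cyp4a10 were not computed, for lack of a probe set of its own, so this was the 1 pair tested.

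Cyp4a31, a close relative of Cyp4a10, had 2 probe sets, both with a positive difference. On 1424943_at the mutants had 6.67, 6.69 and 7.85, against 4.90, 6.16 and 6.49 in controls. No mutant was below any control, though the gap was 0.18 (log2 fold change 1.22, SE 0.49, 95% interval 0.09 to 2.35, adjusted p = 0.352, limma). On the brighter 1440134_at the mutants had 9.47, 8.50 and 9.98, against 7.26, 8.55 and 9.05 in controls. Here mutant 2 lay within the control range, and the fitted difference was 1.03 on the log2 scale (SE 0.52, 95% interval -0.17 to 2.24, adjusted p = 0.393, limma). Control 1 was the lowest of the 6 arrays on both probe sets, and without it the differences were 0.74 and 0.52. The probe set 1424853_s_at, annotated for both Cyp4a31 and Cyp4a10 and so no member, had 11.69, 10.93 and 12.43 in mutants, against 11.62, 11.11 and 11.89 in controls. Its groups overlapped fully (log2 fold change 0.14, 95% interval -0.76 to 1.04, adjusted p = 0.876, limma). It is the nearest view of Cyp4a10 these arrays give, and transcripts of the 2 genes cannot be told apart on it.

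**Figure D2:**
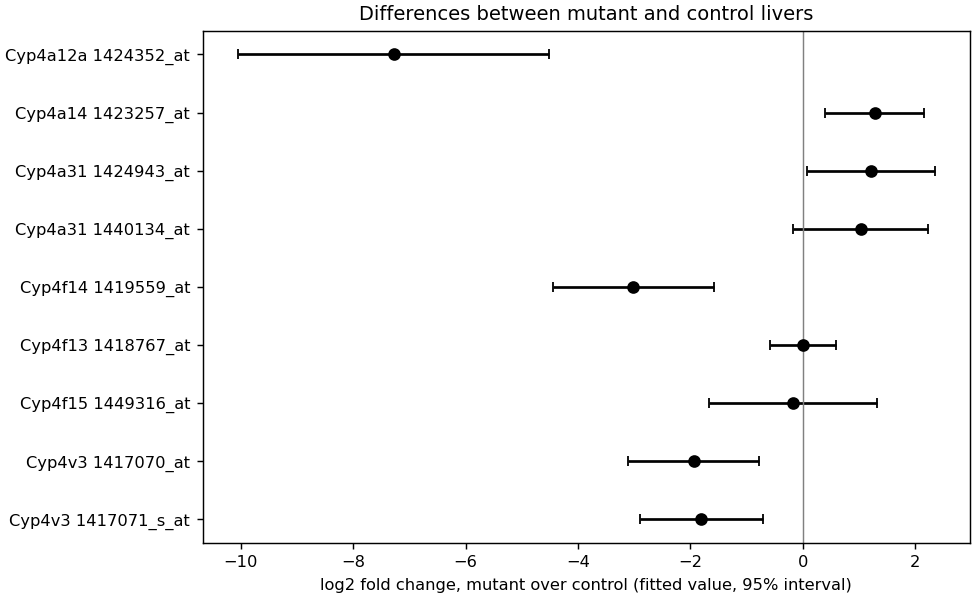
Fitted log2 fold change of each Cyp4 probe set, mutant over control (horizontal axis), with its 95% interval from limma, unadjusted (n = 3 arrays each). Cyp4a12a at -7.28, Cyp4f14 at -3.01 and Cyp4v3 at -1.94 and -1.80 lie left of 0, Cyp4a14 and Cyp4a31 lie right of it, and the intervals of Cyp4f13, Cyp4f15 and the second probe set of Cyp4a31 span 0.

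On chromosome 17, Cyp4f14, a liver leukotriene B4 omega-hydroxylase that also starts the breakdown of the vitamin E side chain, was lower in each mutant (1419559_at). Its log2 signal was 5.40, 8.21 and 6.83 in mutants 1 to 3, against 10.06, 9.95 and 9.45 in controls 1 to 3. The controls lay close together and all mutants were below them, with a gap of 1.25 between mutant 2 and control 3. The mean was 6.81 ± 1.41 in mutants and 9.82 ± 0.32 in controls (SD, n = 3 each), a log2 fold change of -3.01, 8.07-fold (SE 0.62, 95% interval -4.44 to -1.58, adjusted p = 0.167, limma).

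Its neighbours Cyp4f13 and Cyp4f15 had groups that overlapped. Cyp4f13 (1418767_at) had 6.78, 7.44 and 7.34 in mutants, against 7.12, 7.24 and 7.17 in controls. The controls lay within the range of the mutants. Mutants minus controls gave 0.01 on the log2 scale, with a 95% interval of -0.58 to 0.60 and an SE of 0.25 (adjusted p = 0.989, limma). Its sign turned under 5 of the 15 alternatives, some of which cannot change a fold change, including the deposited scaling (-0.44, where the median of all probe sets was -0.37). Cyp4f15 (1449316_at) had 7.30, 9.93 and 9.88 in mutants, against 9.19, 9.04 and 9.37 in controls. Mutant 1 was the lowest array while mutants 2 and 3 were above every control. With all arrays the fold change on the log2 scale was -0.17 (95% interval -1.66 to 1.32, SE 0.65, adjusted p = 0.916, limma), and it was 0.70 without mutant 1 (adjusted p = 0.140, limma; 0.140 to 0.971 over the 15 alternatives). With the index in the model it was 1.32. Whether Cyp4f14 and its neighbours responded differently was not tested.

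Cyp4v3, the mouse counterpart of human CYP4V2, a fatty acid hydroxylase whose loss causes a retinal crystal disease in people, had 2 probe sets of like pattern. On 1417070_at the mutants had 6.90, 8.99 and 7.44, against 10.14, 9.40 and 9.62 in controls. On 1417071_s_at, which can also detect related transcripts, they had 7.59, 9.50 and 8.46, against 10.87, 9.98 and 10.11. All mutants were below all controls on both, by 0.41 and 0.48 at the closest. The log2 fold changes were -1.94 (SE 0.51, 95% interval -3.11 to -0.77, adjusted p = 0.269, limma) and -1.80 (SE 0.48, 95% interval -2.90 to -0.70, adjusted p = 0.270, limma).

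Cyp4f14 and Cyp4v3 shared an order of the mutant arrays: mutant 2 was nearest to the controls and mutant 1 farthest on all 3 probe sets. This order is not particular to them. Over all probe sets mutant 1 correlated with the controls at 0.83 to 0.85, mutant 3 at 0.88 to 0.90 and mutant 2 at 0.91 to 0.92 (Pearson). Without mutant 2 these were the members that passed the test, lower in mutants. The log2 fold changes were then -3.71 for Cyp4f14 (adjusted p = 0.0144, limma; 0.0144 to 0.695 over the 15 alternatives), -2.55 for Cyp4v3 on 1417070_at (adjusted p = 0.0155; 0.0155 to 0.929) and -2.29 on 1417071_s_at (adjusted p = 0.0371; 0.0371 to 0.929). In that fit 1.56% of all probe sets passed as lower and 2.13% in either direction. Without mutant 1, 0.466% of all probe sets passed and no Cyp4 probe set did, with Cyp4f14 at -2.31 (adjusted p = 0.0542, limma). The degradation index ordered the mutants in the same way, mutant 1 having the highest index and mutant 2 the lowest. With the index in the model the log2 fold change was -1.30 for Cyp4f14 and -0.83 and -0.72 for Cyp4v3, at adjusted p = 0.695, 0.929 and 0.929 (limma), a fit in which 0.0185% of all probe sets passed. Mutant 2 and control 3 had nearly equal indices, 1.18 and 1.22, and there Cyp4f14 was 8.21 in the mutant and 9.45 in the control, and Cyp4v3 8.99 and 9.62 on 1417070_at. These are single arrays, and the part of RNA quality was not tested by setting them side by side.

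**Figure D3:**
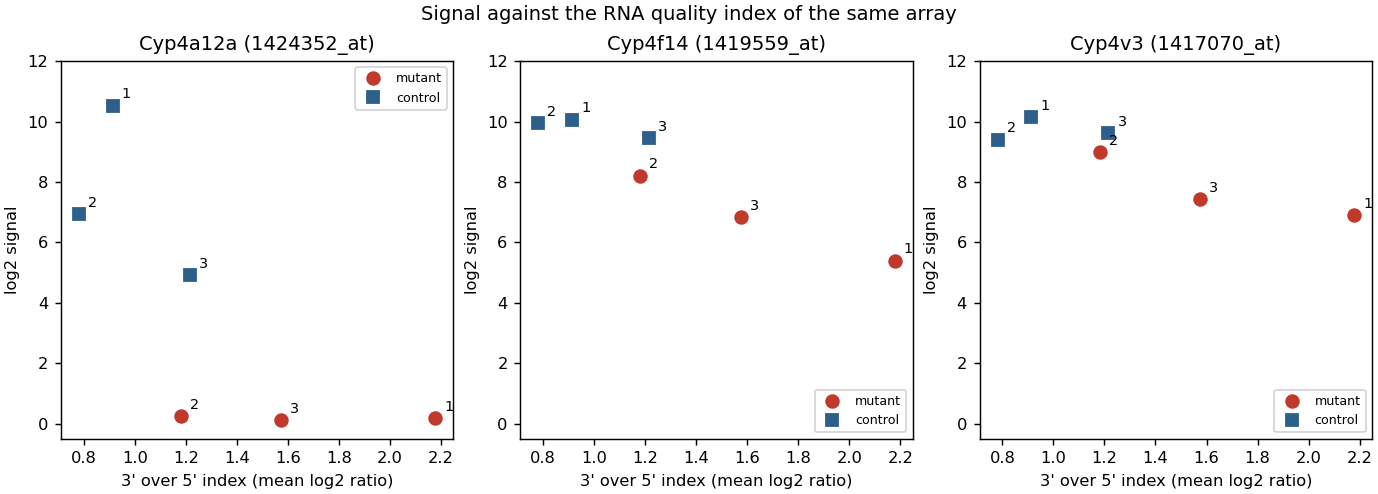
Log2 signal of Cyp4a12a, Cyp4f14 and Cyp4v3 (vertical axes) against the degradation index (3' over 5' log2 ratio) of the same array (horizontal axes), 1 point for each array with its number. Cyp4f14 and Cyp4v3 are lower on mutant arrays with a higher index. Cyp4a12a is at 0.10 to 0.26 on the mutant arrays, below background, where a further loss could not be seen.

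**Figure D4:**
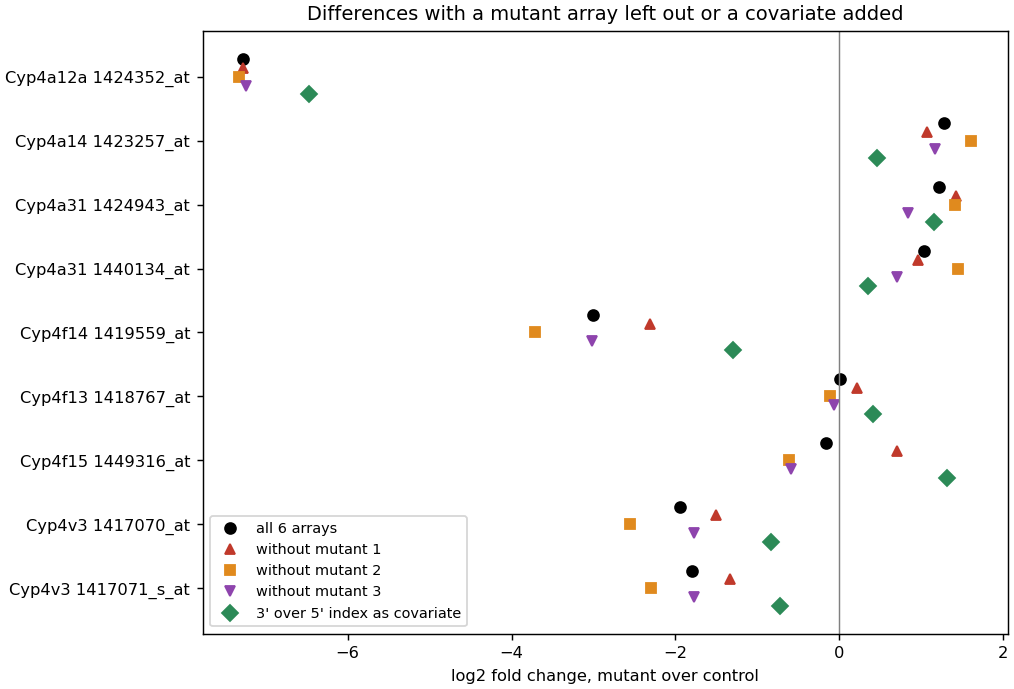
Log2 fold change of each Cyp4 probe set, mutant over control (horizontal axis), with all arrays, with each mutant array left out, and with the degradation index added to the model. Cyp4a12a, below background in mutants, lies between -7.32 and -6.47 here, and at -5.75 without control 1 and -8.55 without control 3, which are not drawn. Cyp4f14 lies between -3.71 and -1.30, and Cyp4f13 and Cyp4f15 lie on both sides of 0.

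Genes with the most similar pattern were taken as those with the smallest root mean square difference from a member over the 6 arrays, after centring on control means, among 13137 genes. A shared order of arrays, controls included, therefore follows in part from the selection and is no separate evidence. For Cyp4a12a the nearest was Hsd3b5 (1420531_at), a 3-ketosteroid reductase known as male-specific in mouse liver, at a distance of 0.80. It was at 0 on each mutant array, against 10.38, 7.23 and 2.85 in controls 1 to 3, the same order among controls as for Cyp4a12a. Mup10, a major urinary protein (distance 1.36), and Slco1a1, an uptake transporter more abundant in males (distance 1.42), also had that order among the controls, as did the P450 Cyp2c54 (distance 1.69) over a narrower range of 10.71 to 11.35. Cyp2c54 was the 1 of these 4 that passed the test, at 4.01, 4.51 and 5.64 in mutants, against 11.35, 10.99 and 10.71 in controls (log2 fold change -6.29, adjusted p = 0.00333, limma). The mutant means of Hsd3b5, Mup10 and Slco1a1 were below the mutant background of 3.04, as for Cyp4a12a. Hsd3b5 in control 3 was also just below the control background of 2.87.

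For Cyp4a14 the 4 nearest were Setd7, a protein methyltransferase, Mtx3, a mitochondrial metaxin, Pole4, a DNA polymerase epsilon subunit, and Lhpp, a phosphatase, at distances of 0.20 to 0.21. For Cyp4f14 they were Slco2b1, an organic anion transporter (distance 0.15), Cmah, which makes the sialic acid Neu5Gc (0.16), Cdca7l (0.25) and the P450 Cyp2c55 (0.26). Slco2b1 had 3.88, 6.71 and 5.34 in mutants, against 8.61, 8.20 and 8.22 in controls. Mutant 2 was nearest the controls, as for Cyp4f14 and over all probe sets, a likeness that the selection favours. None of these 8 passed the test (limma; adjusted p 0.112 to 0.299).

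**Figure D5:**
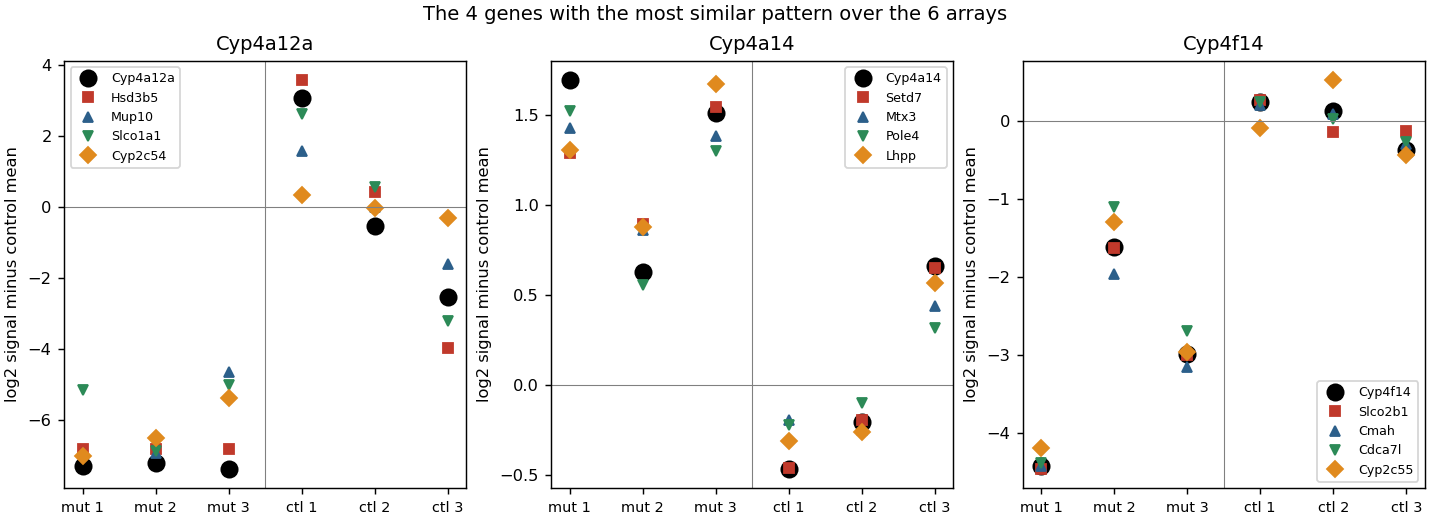
Log2 signal minus the control mean (vertical axes) of Cyp4a12a, Cyp4a14 and Cyp4f14, in black, and of the 4 genes nearest to each, on the 3 mutant (mut) and 3 control (ctl) arrays. Hsd3b5, Mup10 and Slco1a1 share with Cyp4a12a a wide spread among the controls, with control 1 highest and control 3 lowest. The genes shown were selected for likeness over these same arrays.

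Of the other Cyp4 genes, 3 of 11 listed were kept, and none passed the test or an unadjusted p under 0.05 (limma), where 0.114% of the 13144 genes passed. Cyp4b1 had a log2 fold change of -0.07 (95% interval -0.82 to 0.68) and Cyp4f16 of 0.44 (95% interval -0.43 to 1.31), while Cyp4f39 was below background in both groups.

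Genes for electron donors and heme synthesis were mostly lower in value without passing. P450 reductase (Por), the electron donor named above, had no probe set of its own and so is not covered. Of 12 genes for electron donors and heme synthesis 10 were kept, and none passed (limma). At an unadjusted p under 0.05 there were 5, all lower, against 14.4% of all genes in either direction, and the median log2 fold change was -0.90 beside 0.06 over all genes. Alad, the second enzyme of heme synthesis, had -1.96 (adjusted p = 0.315, limma) and Alas1, its first and rate-limiting enzyme, -1.05 (adjusted p = 0.341). Cyb5b, a cytochrome b5, had -1.30, and Cyb5r3, its reductase, -1.11. Cyb5a, another cytochrome b5 and outside the rule for named genes, had -0.02 (95% interval -0.53 to 0.48) with overlapping groups. In Alad, as in Cyp4f14, mutant 1 was lowest at 6.97 and mutant 2 nearest the controls at 9.99, against 10.40, 10.48 and 10.49 in controls. Over all probe sets, too, mutant 1 was farthest from the controls and mutant 2 nearest.

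Genes for making dicarboxylic acids and shortening them in peroxisomes had no common direction. Of 17 listed 15 were kept, 7 with a positive and 8 with a negative difference, none passing and 4 at an unadjusted p under 0.05, against 14.4% of all genes (limma), with a median of -0.13. Adh4, an alcohol dehydrogenase that oxidises omega-hydroxy fatty acids, had 6.19, 7.92 and 7.54 in mutants, against 10.13, 9.63 and 9.26 in controls (log2 fold change -2.45, SE 0.46, adjusted p = 0.133, limma). Ehhadh, the peroxisomal bifunctional enzyme, had 0.82 and Crat, carnitine acetyltransferase, 1.20, with every mutant above every control in both. Adh7, another alcohol dehydrogenase, had 1.12 with overlapping groups.

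Targets of PPARalpha other than the Cyp4a genes, listed together with Ppara itself, Rxra and Ppargc1a, were also split. Of 27 listed, which share Ehhadh, Acaa1b and Pex11a with the previous list, 24 were kept, 13 positive and 11 negative, with a median of 0.14, none passing and 5 at an unadjusted p under 0.05, against 14.4% of all genes (limma). Pdk4, an inhibitor of pyruvate dehydrogenase raised in fasting, had 11.58, 7.64 and 8.46 in mutants, against 3.91, 5.24 and 6.64 in controls (log2 fold change 3.96, SE 1.04, adjusted p = 0.270, limma). Vnn1, the pantetheinase vanin, had -1.11 (adjusted p = 0.296) and Acot3, a peroxisomal thioesterase, 1.78 (adjusted p = 0.329).

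The male-biased list, which holds Hsd3b5 and Slco1a1 too and was chosen with earlier results of these data known, so that it is no independent evidence, had 14 of 18 genes kept, 12 of them negative, with a median of -1.87. Mup3, a major urinary protein, had 2.64, 4.36 and 3.24 in mutants, against 12.83, 12.25 and 11.47 in controls. It passed as lower (log2 fold change -8.77, adjusted p = 0.00208, limma), where 0.0837% of all genes did. At an unadjusted p under 0.05 there were 8 of the 14, all lower, against 14.4% of all genes in either direction, and 8 of the 14 were lower in each mutant than in any control, against 10.8% of all genes. Elovl3, a fatty acid elongase, had 3.32, 3.04 and 2.92 in mutants, against 7.98, 6.41 and 4.90 in controls (log2 fold change -3.33, adjusted p = 0.167, limma). Elovl3 in mutants 2 and 3 and Mup3 in mutant 1 were below the mutant background of 3.04, so the size of both fold changes is uncertain. Nudt7, a peroxisomal nudix hydrolase, had -3.20. The P450 Cyp2u1 was below background in mutants, and at least 8.49-fold lower there. Control 1 was the highest control for Mup3, Nudt7, Cyp2u1 and Elovl3, as for Cyp4a12a. It was also the highest for genes outside this list, such as Alas1, Igf1 and Adh4. The share of all genes with control 1 highest was not computed.

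Among genes more abundant in female liver, 12 of 20 listed were kept, Acot3 being shared with the PPARalpha list, 8 with a positive and 4 with a negative difference, with a median of 0.94. At an unadjusted p under 0.05 there were 4 higher and 1 lower, against 14.4% of all genes in either direction (limma). Sult1e1, estrogen sulfotransferase, had 9.40, 8.76 and 11.01 in mutants, against 0.98, 2.16 and 2.96 in controls. It passed as higher (adjusted p = 0.0129, limma), and its control mean being below background, mutants were at least 116.0-fold higher. Abcc4, an efflux transporter, passed too (log2 fold change 2.69, adjusted p = 0.0363, limma), where 0.0304% of all genes passed as higher. Slc16a5, a monocarboxylate transporter family member, was 2.82-fold higher in mean (adjusted p = 0.330, limma), with every mutant above every control, though by only 0.01 on the log2 scale at the closest. Hao2, a peroxisomal hydroxy acid oxidase, had a negative difference, with 0.53, 8.38 and 7.04 in mutants, against 9.71, 9.48 and 9.66 in controls (log2 fold change -4.30, adjusted p = 0.352, limma). Hao2 lies outside the rule for named genes and was chosen after its values were seen. In growth hormone signalling 3 of 8 genes were lower at an unadjusted p under 0.05, against 14.4% of all genes in either direction, none passing (limma): Igf1, the growth factor, at -2.89, its carrier Igfals at -4.14 and the receptor Ghr at -2.26. Ghr had 6.82, 10.40 and 9.51 in mutants, against 11.05 to 11.37 in controls, with mutant 1 lowest. Socs2, a feedback inhibitor, had 1.15 with overlapping groups. The median of the 8 was -0.07, with 3 positive and 5 negative differences. Apart from Igf1, Igfals and Ghr, every gene of this list had overlapping groups.

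Of 12 genes of leukotriene and eicosanoid metabolism 10 were kept, none passing and 2 lower at an unadjusted p under 0.05, against 14.4% of all genes in either direction (limma), with a median of -0.30. Ptgr1, which inactivates leukotriene B4 by a route separate from the CYP4F enzymes, had -1.21 (adjusted p = 0.285), and Lta4h, which makes leukotriene B4, -0.63 (adjusted p = 0.344). Hpgd, the prostaglandin dehydrogenase, had -1.20 with overlapping groups, and Alox5, the leukotriene-forming lipoxygenase, was below background in both groups.

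Markers of other cell types varied among the mutant arrays, with none passing the test (limma). The summed level of the 6 stellate cell markers was 7.56 to 9.84 in mutants and 9.50 to 9.91 in controls, with 5 of 6 above background. Kupffer cell and macrophage markers, 5 of 5 above background, summed to 8.45 to 9.55 in mutants and 9.44 to 9.95 in controls, and endothelial markers, 5 of 5, to 7.77 to 9.27 in mutants and 8.56 to 8.64 in controls. Of 4 cholangiocyte markers 2 were above background, summing to 5.29 to 5.97 in mutants and 5.08 to 5.20 in controls. Of 4 blood markers 1 was, the sum reaching 6.11 at most in mutants and 6.38 at most in controls. Of 4 kidney markers, included because the kidney expresses Cyp4a genes, none was, with sums of 3.84 to 4.87 in mutants and 3.64 to 4.86 in controls. In the stellate, endothelial and macrophage sums mutant 1 was lowest and mutant 2 highest of the mutants, the order seen for Cyp4f14 and Cyp4v3, and their part in those differences was not tested. Mutant 1 was also farthest from the controls and mutant 2 nearest over all probe sets.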

How the data were processed

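The deposited table held 1 linear intensity for each probe set and array, per the file headers and values, and per the submitters' processing notes it came from GCOS, the Affymetrix scanner software; its settings are unknown here. Biotin labelling followed the one-cycle protocol, per the labels. Trimmed means (2% at each end) of the deposited intensity differed, 37.3 to 58.1 on mutant and 55.2 to 69.9 on control arrays, so arrays were scaled to their mean, signals under 1 were set to 1, log2 was taken and the lower 40% of probe sets (under 2.10) were left out. Gene symbols came from the platform annotation, updated by Entrez identifier through RefSeq. Samples were grouped by title. Mutants and controls were compared with limma 3.58.1 (R 4.3.3; lmFit and eBayes with a variance trend, two-sided, Benjamini-Hochberg over 27022 probe sets), checked on simulated data. A gene in a list is its brightest kept probe set. No batch was known, and the number of arrays limits the precision.

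The members and gene lists were chosen with earlier results of these data known. Every member is named; of each list up to 4 genes with the smallest adjusted p are named, and for Cyp4a12a, Cyp4a14 and Cyp4f14 the 4 genes of nearest pattern. Alternatives were other scalings, filters, a pseudocount of 32, no variance trend, the degradation index, the replicate number as a block and each array left out.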

Additional observations from a re-analysis of the deposited data

How the results depend on the processing

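No Cyp4 probe set passed the test in any of the 15 alternatives except without mutant 2, where 3 passed (0 to 3 with each array left out in turn). Direction held in every alternative for 7 of the 9 probe sets. With other filters, without the variance trend and with the replicate block, the fold change stays as reported by construction. Direction could turn only in the remaining alternatives. Cyp4f13, 0.01 as reported and -0.12 to 0.21 with an array left out, turned to -0.44 on the deposited scaling, -0.22 with arrays centred on their median, and -0.12, -0.07 and -0.02 without mutant 2, mutant 3 and control 1. Cyp4f15, -0.17 as reported and -0.61 to 0.70 with an array left out, turned to 1.32 with the degradation index in the model and to 0.70 without mutant 1. Adding 32 to each signal before log2 brought Cyp4a12a to -2.88, by construction of the pseudocount. The number of all probe sets past the threshold, 20 as reported, was 35 on the deposited scaling, where the median of all was -0.37 in place of 0.08 (-0.15 after median centring), 0 when dim probe sets were kept, 11 with 60% left out, 110 with 32 added, 9 without the variance trend and 5 with the index in the model. With each array left out it lay between 2 and 576; the cause was not tested. The labels do not say that a replicate number is shared between a mutant and a control. Deviations of same-numbered arrays correlated at -0.04, 0.02 and 0.04, which with so few arrays cannot exclude a pairing. With the replicate number as a block 22 probe sets passed, none of them a Cyp4 probe set, with adjusted p = 0.084 for Cyp4a12a (limma). The gap between the responses of Cyp4a14 and Cyp4a12a was 6.80 to 10.16 with an array left out and 4.15 with 32 added. The number of arrays limits every comparison, and Cyp4a12a, below background in mutants, has only a bound, at least 7.38-fold to 51.5-fold lower in mutants with a control array left out.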
